A study of Mus musculus with 6 samples.

Results

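Neutrophil granule genes were followed in RNA of liver sinusoidal endothelial cells, which form the porous wall of the liver's capillaries. The set holds 10 of the 51165 genes in the deposited table and was chosen by name and stage. Primary granule genes were Elane, Mpo, Prtn3 and Ctsg, secondary granule genes were Camp, Ngp and Ltf, and late genes were Mmp8, Mmp9 and Retnlg. The isolates came from C57BL/6 mice aged 7 to 8 weeks, with 3 libraries of the wild type genotype and 3 of the genotype NICeCA. Every mouse of both genotypes received tamoxifen by injection into the peritoneum, per the labels to switch on Notch signalling. Wild type, titled CT, served here as the comparison group for NICeCA, titled NICD. Beyond the title NICD, the labels describe neither the allele nor the driver behind NICeCA. Nor do they tie libraries to single animals, so p-values reflect library-to-library spread, some of which may be technical.

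Neutrophils are short-lived white blood cells that mature in the bone marrow and pack their antimicrobial proteins into granules in a fixed order. Promyelocytes transcribe the serine proteases and the peroxidase of the primary granules, myelocytes and metamyelocytes then transcribe the secondary granule proteins, and late forms transcribe gelatinase and secreted factors while the earlier messages fade. Transcripts of the primary granule genes are thus mostly a mark of immature cells, and those of the late genes of cells that circulate in blood, which also passes through the liver sinusoids. In bulk RNA, more cells of a type and more RNA per cell cannot be told apart.

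All 10 genes had higher mean levels in NICeCA than in wild type, with log2 fold changes above 1, and the size of the difference was ordered by stage. Of all tested genes 48.4% had a positive log2 fold change and 8.04% one of 1 or more. The median log2 fold change was 4.81 over the 4 primary genes, 3.37 over the 3 secondary genes and 2.36 over the 3 late genes, beside -0.014 over all 19795 genes tested. None of the 10 passed edgeR's quasi-likelihood test at an adjusted p of 0.05, a call that 0.0253% of tested genes reached as higher, and 7 of the 10 had an unadjusted p under 0.05, as did 9.12% of tested genes in that direction. DESeq2 called 4 of the 10 higher, Elane, Prtn3, Ctsg and Camp, against 3.47% of the genes it tested. The groups did not overlap in 7 of the 10, which was so for 11.6% of tested genes. Relative to S100a8, an abundant transcript of mature neutrophils, the 3 secondary genes and all primary genes but Mpo were separated, and the late ones overlapped.

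The libraries differed in neutrophil signal within each genotype. NICeCA 3 was the highest library in all 10 genes, and wild type 3 was the lowest or was listed at 0 in all 10. Together the 10 genes took between 0.00447% and 0.103% of all counts in wild type, and 0.138%, 0.206% and 0.771% in NICeCA 1, 2 and 3. Library totals ran from 26254649 to 30034191 counts, so that 3 counts, the floor used here, are 0.0989 to 0.115 CPM (the usual read count scaled to library total, here after TMM normalisation). The 14 endothelial identity markers summed in wild type to between 36278 and 37159 CPM and in NICeCA 1, 2 and 3 to 33372, 30369 and 21175 CPM, and 14 of 14 had a negative log2 fold change. The part of that difference in the granule gene values was not tested.

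**Figure D1:**
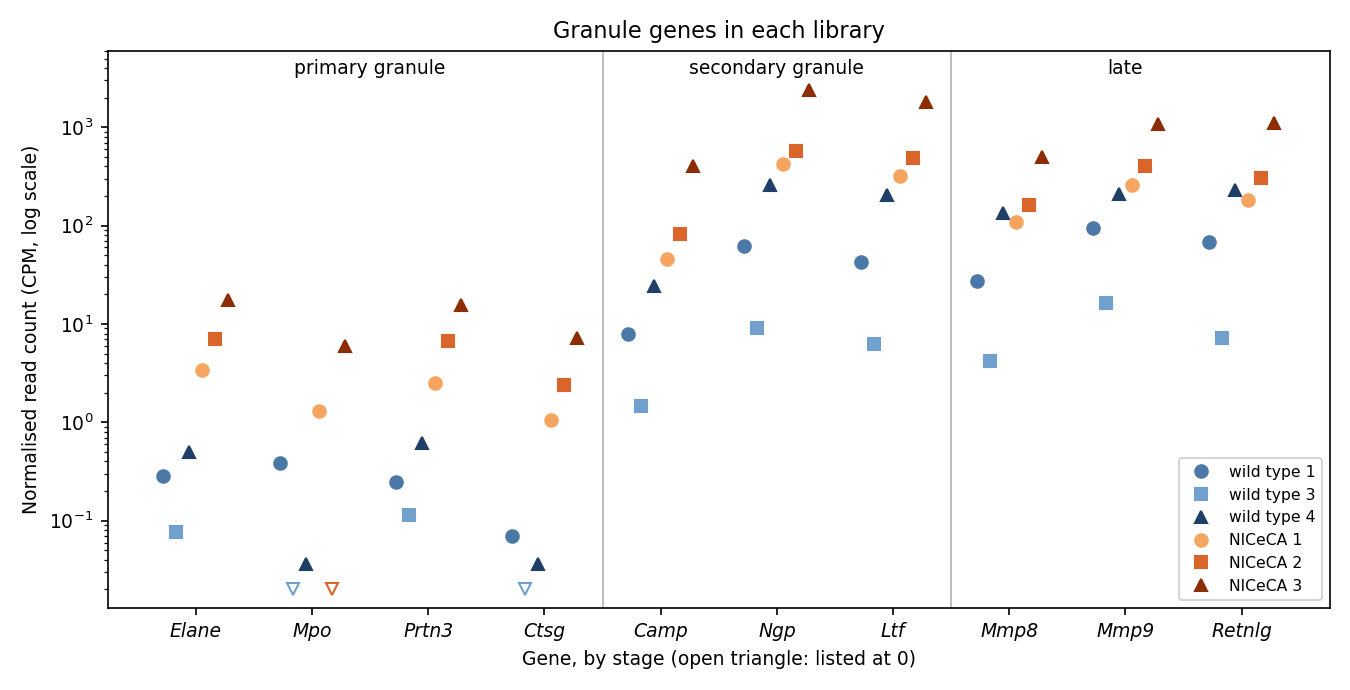
Normalised read count (CPM, log scale) of the 10 granule genes, grouped by stage, in each of the 6 libraries; each point is a library and an open triangle marks a gene listed at 0. Elane, Prtn3, Ctsg and the 3 secondary genes lie higher in every NICeCA library than in every wild type library, while for Mmp8 and Retnlg wild type 4 lies above NICeCA 1.

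Promoters are shown for genes of each stage, because Elane and Prtn3 had alike profiles, as did Ngp and Ltf, and Retnlg stands for the late genes. The sequences are the 250 bases before the RefSeq start site in build GRCm38.p6, whose gene coordinates were identical to those of the deposited table for 8 of the 10 genes. Table entries were found for 9 of the 10, all but Mmp9. Capitals mark matches, on either strand, to GAGGAA, a core of sites bound by the myeloid factor PU.1, to TTNNGCAA, a core of C/EBP sites, and to TGTGGT, a core of RUNX sites.
Elane, chr10:79886062-79886311, plus strand: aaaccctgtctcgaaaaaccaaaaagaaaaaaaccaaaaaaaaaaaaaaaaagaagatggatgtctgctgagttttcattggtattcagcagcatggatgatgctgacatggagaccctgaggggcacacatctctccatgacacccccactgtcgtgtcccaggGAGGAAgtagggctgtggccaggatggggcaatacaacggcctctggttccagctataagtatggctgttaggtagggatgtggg
Prtn3, chr10:79879417-79879666, plus strand: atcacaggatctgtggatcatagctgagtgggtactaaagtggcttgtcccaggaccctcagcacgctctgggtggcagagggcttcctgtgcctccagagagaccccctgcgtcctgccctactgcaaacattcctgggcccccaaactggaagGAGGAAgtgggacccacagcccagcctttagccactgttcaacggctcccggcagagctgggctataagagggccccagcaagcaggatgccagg
Ngp, chr9:110419558-110419807, plus strand: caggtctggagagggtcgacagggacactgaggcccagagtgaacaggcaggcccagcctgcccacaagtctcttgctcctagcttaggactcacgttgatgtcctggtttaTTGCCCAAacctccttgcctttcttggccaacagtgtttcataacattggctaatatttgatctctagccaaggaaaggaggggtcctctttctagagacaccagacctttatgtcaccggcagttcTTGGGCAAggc
Ltf, chr9:111019042-111019291, plus strand: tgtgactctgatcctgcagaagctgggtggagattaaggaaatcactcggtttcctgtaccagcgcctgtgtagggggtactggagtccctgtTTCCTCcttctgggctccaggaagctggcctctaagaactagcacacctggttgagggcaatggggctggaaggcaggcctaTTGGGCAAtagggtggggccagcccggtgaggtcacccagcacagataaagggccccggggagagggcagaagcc
Retnlg, chr16:48872358-48872607, plus strand: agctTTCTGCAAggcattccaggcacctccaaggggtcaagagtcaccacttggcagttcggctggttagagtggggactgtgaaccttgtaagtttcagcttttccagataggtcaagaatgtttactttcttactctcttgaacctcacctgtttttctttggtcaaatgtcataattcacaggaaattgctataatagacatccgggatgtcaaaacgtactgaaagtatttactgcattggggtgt

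In these windows GAGGAA began 85 bases before the start site of Elane and 95 bases before that of Prtn3. It was present in 6 of the 9 promoters, all 4 primary genes with Ltf and Mmp8, and in 23.3% of 32851 promoter windows of the same length. The C/EBP core was present in 4 of the 9, Ngp, Ltf, Mmp8 and Retnlg, and in 9.56% of all windows. Ngp and Ltf carried it as the same 8 letters, TTGGGCAA, beginning 11 and 75 bases before their start sites. The RUNX core was found in Ctsg alone of the 9, against 14.0% of all windows. A match is a description of the letters and not of binding.

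Elane encodes neutrophil elastase, a serine protease of the primary granules, and lies at chr10:79886312-79888216 on the plus strand. Wild type 1, 3 and 4 held 8, 2 and 14 of its reads, and NICeCA 1, 2 and 3 held 104, 208 and 524. The lowest NICeCA library stood at 3.43 CPM, with an exact Clopper-Pearson 95% interval of 2.80 to 4.16, and the highest wild type library at 0.504 CPM, with an interval of 0.276 to 0.846. These intervals, like the floors, cover counting error only. The means were 0.288 ± 0.214 CPM for wild type and 9.28 ± 7.25 CPM for NICeCA (SD, n = 3 libraries per group). The log2 fold change was 4.98 ± 0.81 (SE), which did not pass edgeR's test (adjusted p = 0.102) and was called by DESeq2 (adjusted p = 3.49e-10). Prtn3, proteinase 3, is the neighbouring protease gene at chr10:79879667-79883174, and 3137 bases separate its end from the start of Elane. Its reads numbered 7, 3 and 17 in wild type and 77, 197 and 471 in NICeCA, again with no overlap. Its log2 fold change was 4.64 ± 0.84 (adjusted p = 0.124 by edgeR, 3.66e-08 by DESeq2). Within each NICeCA library Prtn3 had 0.740 to 0.947 reads for each read of Elane.

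Ctsg, cathepsin G, the third of the serine proteases, lies at chr14:56099881-56102574 on the minus strand. It was nearly absent from wild type, with 2, 0 and 1 reads, and had 32, 71 and 215 reads in NICeCA. The 3 wild type reads against 318 NICeCA reads give a ratio of 96.7, with an exact 95% interval of 32.8 to 472 for counting error alone. In the fit across all genes its log2 fold change was 6.44 ± 1.06, which rests on these 3 wild type reads. It did not pass with edgeR (adjusted p = 0.102) and was called by DESeq2 (adjusted p = 8.07e-07). Ctsg had 0.308, 0.341 and 0.410 reads for each read of Elane in the 3 NICeCA libraries.

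Mpo, myeloperoxidase, the haem enzyme that makes hypochlorous acid, broke the pattern of the other primary genes. Wild type 1, 3 and 4 held 11, 0 and 1 of its reads, and NICeCA 1, 2 and 3 held 40, 0 and 179. NICeCA 2 was thus listed at 0, although Elane stood at 7.02 CPM in that library. Whether this 0 reflects the level of Mpo or the mapping or counting of its reads was not tested. In NICeCA 1 and NICeCA 3, Mpo had 0.385 and 0.342 reads for each read of Elane. A row on the opposite strand within Mpo (chr11:87793784-87804412), ENSMUSG00000085872.1, had 5, 0 and 0 reads in wild type, against 30, 0 and 134 in NICeCA, so it was also listed at 0 in NICeCA 2. Nothing in the labels or the table says whether strand was used in counting, so reads of the overlapping rows cannot be told apart. The log2 fold change of Mpo was 4.03 ± 1.71 (adjusted p = 0.304 by edgeR, 0.468 by DESeq2). It was 2.17 without NICeCA 3, 4.61 without NICeCA 2 and 6.72 without wild type 1.

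The secondary genes were far more abundant. Ngp, neutrophilic granule protein, a cystatin-like protein of the secondary granules in mouse, had 1777, 239 and 7108 reads in wild type, against 12864, 17033 and 72196 in NICeCA. The means were 109 ± 130 CPM and 1131 ± 1097 CPM, and the log2 fold change was 3.37 ± 1.21 (adjusted p = 0.247 by edgeR, 0.110 by DESeq2). The groups did not overlap, yet the SD within each group was close to or above its mean. Ltf, lactotransferrin, the iron-binding lactoferrin, followed Ngp closely, with 1223, 163 and 5639 reads in wild type, against 9679, 14312 and 54469 in NICeCA. Its log2 fold change was 3.37 ± 1.23 (adjusted p = 0.251 by edgeR, 0.119 by DESeq2), and it had between 0.682 and 0.840 reads for each read of Ngp over the 6 libraries. Camp, the cathelicidin precursor of an antimicrobial peptide, had 226, 38 and 677 reads in wild type, against 1397, 2433 and 12046 in NICeCA. Its log2 fold change was 3.96 ± 1.17 (adjusted p = 0.204 with edgeR), and DESeq2 called it (adjusted p = 0.0400).

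The 3 secondary genes lie within 1195390 bases of each other on chromosome 9, Camp at chr9:109847377-109849456, Ngp at chr9:110419808-110423012 and Ltf at chr9:111019292-111042766. Of the other genes between Camp and Ltf 32 were tested. Their median log2 fold change was 0.084, the highest was 0.90 for Nbeal2, and 2 of the 32 were higher with no overlap between groups. Around Prtn3 and Elane, within 100000 bases either side, 19 other genes were tested, with a median of 0.14 and a highest value of 1.36 for Arid3a, and 5 of the 19 were higher with no overlap, against 11.6% of all tested genes. No tested neighbour in either window reached the log2 fold change of the granule genes there.

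Among the late genes the genotypes lay closer together. Retnlg, resistin-like gamma, a secreted protein of mouse neutrophils at chr16:48872608-48874498, had 1945, 190 and 6453 reads in wild type, against 5584, 9109 and 32939 in NICeCA. Wild type 4, at 232 CPM, lay above NICeCA 1, at 184 CPM, so the groups overlapped. The log2 fold change was 2.36 ± 1.16 (adjusted p = 0.362 by edgeR, 0.322 by DESeq2). Mmp8, neutrophil collagenase (chr9:7558429-7568486), overlapped in the same way, with 772, 111 and 3741 reads in wild type, against 3308, 4800 and 15099 in NICeCA. Its log2 fold change was 2.21 ± 1.13 (adjusted p = 0.381 by edgeR, 0.387 by DESeq2), and Gm31751 on the opposite strand, which overlaps it, had 0.0180 to 0.0275 reads for each read of Mmp8. Mmp9, gelatinase B (chr2:164940744-164955850), which macrophages also make, had 2699, 428 and 5869 reads in wild type, against 7773, 11916 and 32675 in NICeCA. It did not overlap between groups, and its log2 fold change was 2.43 ± 0.91 (adjusted p = 0.262 by edgeR, 0.150 by DESeq2).

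**Figure D2:**
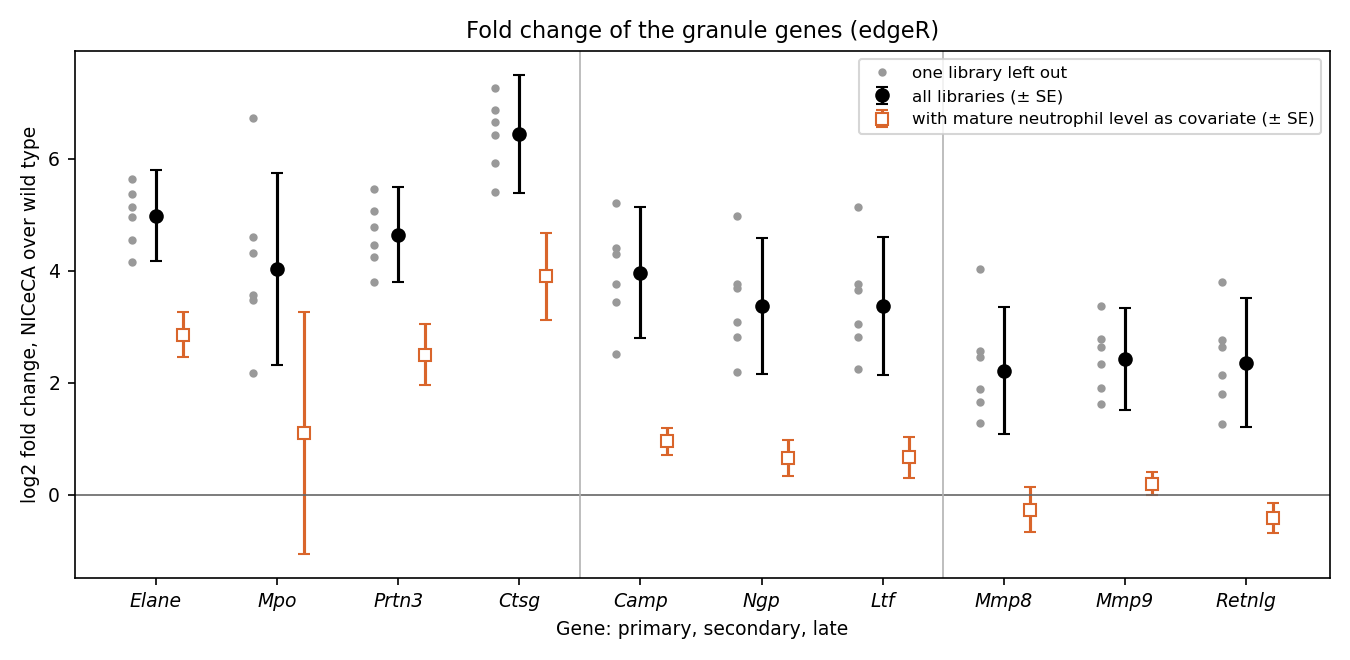
Log2 fold change of NICeCA over wild type for each granule gene by edgeR, with all libraries (black, ± SE), with each library left out in turn (grey) and with the mature neutrophil level of each library as a covariate (orange squares, ± SE). With that covariate Elane stands at 2.86, Ngp at 0.65 and Retnlg at -0.41. The covariate does not overlap between genotypes, so the orange values rest on extrapolation along a line.

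The stage medians kept this order when any library was left out, but single genes did not, and the primary and secondary medians came close without wild type 4. Without NICeCA 3 the log2 fold change was 4.15 for Elane, 2.19 for Ngp and 1.26 for Retnlg, and without wild type 3 it was 4.54, 2.82 and 1.80. Without wild type 4, the wild type library with most neutrophil reads, it was 5.63, 4.97 and 3.79. In that set the stage medians were 5.55 for primary, 5.13 for secondary and 3.79 for late genes, and Mpo, at 3.57, lay below all 3 secondary genes and below Mmp8 and Retnlg. None of the 10 genes passed with edgeR in any of these sets of libraries.

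Per length, the order of the genes themselves differed between the genotypes. In the deposited RPKM (reads scaled to gene length and library total) Retnlg had the highest level in wild type, at 163 ± 187, followed by Ngp at 91.1 ± 109, Mmp9 at 30.6 ± 28.1, Ltf at 29.7 ± 37.2, Mmp8 at 21.9 ± 27.7 and Camp at 18.2 ± 19.2. In NICeCA the order was Ngp at 1016 ± 1003 RPKM, Retnlg at 905 ± 861, Ltf at 331 ± 316, Camp at 307 ± 344, Mmp9 at 178 ± 139 and Mmp8 at 109 ± 92.3. Among these 6 genes no neighbours in either order differed beyond their spread over libraries. Primary genes were the lowest 4 in both, from 0.0261 ± 0.0394 RPKM for Mpo to 0.323 ± 0.258 for Prtn3 in wild type, and from 0.494 ± 0.642 for Mpo to 10.5 ± 8.38 for Elane in NICeCA. Within libraries, where depth and cell mixture are shared, Retnlg lay above Ngp in RPKM in wild type 1, 3 and 4 and in NICeCA 2 (514 against 503) and below it in NICeCA 1 and 3.

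The balance of stages within a library also differed between the genotypes. Primary genes summed to 5.17, 6.86 and 2.05 CPM per 1000 CPM of late genes in wild type 1, 3 and 4, and to 15.2, 18.4 and 17.2 in NICeCA 1, 2 and 3. Secondary genes summed to 0.596, 0.604 and 0.836 CPM per CPM of late genes in wild type and to 1.44, 1.31 and 1.72 in NICeCA. Neither of these ratios overlapped between genotypes. The ratio of primary to secondary genes did overlap, at 8.68, 11.4 and 2.46 CPM per 1000 CPM of secondary genes in wild type 1, 3 and 4, against 10.6, 14.1 and 10.0 in NICeCA 1, 2 and 3. Wild type 3 lay above NICeCA 1 and NICeCA 3, so primary and secondary genes were not separated from each other within libraries. The mean log2 ratio of primary to late was -7.90 ± 0.91 in wild type and -5.89 ± 0.14 in NICeCA (SD, n = 3), a difference of 2.02, and that of secondary to late was -0.58 ± 0.28 and 0.56 ± 0.20, a difference of 1.14. Without wild type 4 the difference for primary over late was 1.504. When each stage was averaged as log2(CPM + 1), the difference for primary over late turned to -0.79, since the wild type primary genes lie under the pseudocount of 1 CPM, while that for secondary over late was 1.04. The ratios are given as a description, with no test.

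Wild type 4 and NICeCA 1 show the balance at about equal late signal. Their late genes summed to 579 and 550 CPM, from 16063 and 16665 reads. Primary genes had 33 reads in the former and 253 in the latter, and secondary genes 13424 and 23940. Wild type 4 is not typical of its group. Its primary genes summed to 2.05 CPM per 1000 CPM of late genes, against 5.17 and 6.86 in wild type 1 and 3. Its secondary genes summed to 0.836 CPM per CPM of late genes, against 0.596 and 0.604. Markers of Kupffer cells, the resident macrophages of the liver, summed to 2383 and 1730 CPM over 11 genes in this pair.

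Division by S100a8 scales every gene of a library alike, so it gives no independent view of the order by stage. Mpo, at 2.24-fold between group means per S100a8 read, lay below Camp at 2.45 and Ltf at 2.32. Elane had 1.27, 2.36 and 0.765 reads per 1000 S100a8 reads in wild type and 5.91, 7.69 and 5.17 in NICeCA. Ngp had 283, 282 and 389 reads per 1000 in wild type and 731, 629 and 712 in NICeCA. Retnlg had 309, 224 and 353 in wild type and 317, 337 and 325 in NICeCA, which overlap. By this measure 6 of the 10 genes were higher with no overlap between groups, Elane, Prtn3, Ctsg, Camp, Ngp and Ltf, where 0.121% of 19792 tested genes were. That share was bound to be small, since dividing by a transcript with a higher mean in NICeCA lowers the NICeCA values of most genes. Among the other listed genes, 1 of 13 primary granule and promyelocyte, 4 of 16 secondary granule and 0 of 19 mature neutrophil genes were. S100a8 itself had a log2 fold change of 2.41 ± 1.08 with overlapping groups (adjusted p = 0.325 with edgeR).

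**Figure D3:**
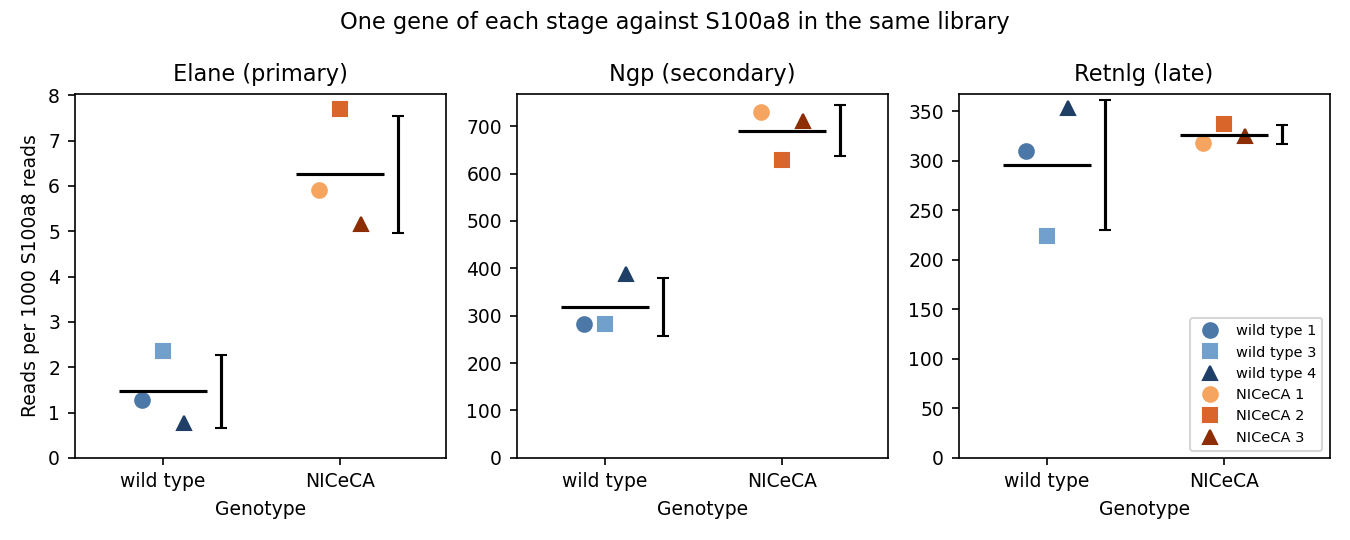
Reads of Elane, Ngp and Retnlg per 1000 reads of S100a8 in the same library (linear axes from 0), by genotype; points are libraries, horizontal lines the mean and side bars the SD over 3 libraries. Elane lies at 5.17 or more in NICeCA and at 2.36 or less in wild type, Ngp at 629 or more against 389 or less, and the Retnlg values overlap.

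The choice of S100a8 as the reference was made after its values were seen, so each of the 20 mature neutrophil genes listed for context was used in turn. Ctsg was higher with no overlap against 20 of the 20, Elane and Prtn3 against 19, Camp and Ngp against 18 and Ltf against 17. The exceptions were Ly6g for Elane, Prtn3, Camp, Ngp and Ltf, Il1b for Camp, Ngp and Ltf, and Clec4d for Ltf; Ly6g had 6 reads in wild type 3. Mmp9 was higher against 7, Retnlg against 3, Mmp8 against 1 and Mpo against 0. These counts are not independent checks, since the same 6 libraries lie behind each. The share over all tested genes was taken for S100a8 only, so the counts have no such share beside them. With the mean log2 level of these 20 genes as a covariate in edgeR, also chosen after seeing the data, the log2 fold change was 2.86 ± 0.40 for Elane, 2.50 ± 0.54 for Prtn3, 3.90 ± 0.78 for Ctsg and 0.96 ± 0.24 for Camp. Mpo, the other primary gene, stood at 1.11 ± 2.16, an SE above its value. Ngp and Ltf stood at 0.65 ± 0.32 and 0.67 ± 0.36, Mmp9 at 0.20 ± 0.20, and Mmp8 and Retnlg were negative, at -0.26 ± 0.40 and -0.41 ± 0.26. No gene of the whole table passed in that fit, whose smallest adjusted p was 0.299, and 1064 genes had an unadjusted p under 0.05.

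Other genes of early granulocytes, listed for context, were less uniform. Of 15 primary granule and promyelocyte genes 13 were tested, 12 with a positive log2 fold change and a median of 0.92; none passed with edgeR, 4 had an unadjusted p under 0.05 and DESeq2 called 3 higher. Fcnb, ficolin B, a lectin of immature neutrophils, had 4, 0 and 11 reads in wild type, against 21, 34 and 208 in NICeCA, with a log2 fold change of 3.98 ± 1.21 (adjusted p = 0.211 by edgeR, 0.00619 by DESeq2). Mgst2, a microsomal glutathione transferase, stood at 2.09 ± 0.64 (adjusted p = 0.211 by edgeR, 0.0199 by DESeq2). Ms4a3, a marker of granulocyte and monocyte progenitors named after its values were seen, was not tested for low counts, with 1, 0 and 0 reads in wild type, against 4, 17 and 67 in NICeCA. Prss57, also named after its values were seen, overlapped between groups, with 46, 36 and 93 reads in wild type, against 91, 63 and 209 in NICeCA. Its log2 fold change was 0.92 ± 0.54 (adjusted p = 0.437 by edgeR, 0.408 by DESeq2). Per S100a8 read only Fcnb of the 13 was higher without overlap, 3 were lower, and the median fold was 0.32. Many genes of this list are also expressed outside neutrophils, and the cells behind their reads were not tested.

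Of the other secondary granule genes 16 were tested, 15 of them positive, with a median log2 fold change of 2.27. None passed with edgeR, 10 had an unadjusted p under 0.05, and DESeq2 called 1 higher, Padi4, and 1 lower, Tcn2. Olfm4, olfactomedin 4, had 85, 17 and 292 reads in wild type, against 553, 625 and 2409 in NICeCA, a log2 fold change of 3.07 ± 0.99 (adjusted p = 0.222 by edgeR, 0.111 by DESeq2). Tcn2, the vitamin B12 carrier transcobalamin 2, was lower in NICeCA, at -1.26 ± 0.22 (adjusted p = 0.108 by edgeR, 1.48e-05 by DESeq2). It did not follow the neutrophil genes over the libraries, at 712, 896 and 980 CPM in wild type 1, 3 and 4. In wild type 3, where Tcn2 stood at 896 CPM, Ngp stood at 9.15 CPM. The cells behind the Tcn2 reads were not tested. Per S100a8 read, Olfm4, Cd177, Chil3 and Itgb2l were higher without overlap, 4 of the 16, and 2 were lower, while Lcn2, lipocalin 2, overlapped, at 214 to 387 reads per 1000 in wild type and 308 to 326 in NICeCA. The 20 mature neutrophil genes were all positive, with a median of 1.92 and no call by edgeR; 10 had an unadjusted p under 0.05 and DESeq2 called 2 higher. Among the 20, Il1b, the inflammatory cytokine interleukin 1 beta, stood at 1.64 ± 0.54 (adjusted p = 0.223 by edgeR, 0.0194 by DESeq2) and Mmp25, a membrane-bound metalloproteinase, at 2.58 ± 0.84 (adjusted p = 0.223 with edgeR). Per S100a8 read none of the other 19 was higher without overlap, and 3 were lower.

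Transcription factors of the granulocyte lineage had a median log2 fold change of 1.61 over 10 genes, 6 positive and 4 negative. None passed with edgeR, 5 had an unadjusted p under 0.05 and DESeq2 called 5 higher. Myb, which maintains progenitors, had 8, 0 and 3 reads in wild type, against 22, 36 and 110 in NICeCA, with a log2 fold change of 3.77 ± 0.98 (adjusted p = 0.191 by edgeR, 0.00285 by DESeq2). Runx1, a regulator of blood cell formation, stood at 1.69 ± 0.39 (adjusted p = 0.171 by edgeR, 0.00177 by DESeq2). Cebpe, the C/EBP factor needed for secondary granules and named after its values were seen, had 16, 6 and 36 reads in wild type, against 44, 87 and 458 in NICeCA, at 3.21 ± 1.01 (adjusted p = 0.215 by edgeR, 0.00541 by DESeq2). The 4 negative genes were Cebpa at -0.13 ± 0.21, Cebpd at -0.13 ± 0.21, Xbp1 at -0.23 ± 0.18 and Per3 at -1.24 ± 0.55. Neither tool called them, and only Per3, at 0.67 CPM or less in every library, was lower without overlap.

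Inhibitors of the granule proteases did not share one direction, with 9 of 16 positive and a median log2 fold change of 0.10. None passed with edgeR, 4 had an unadjusted p under 0.05 and DESeq2 called 1 lower, A2m. A2m, the broad protease trap alpha-2-macroglobulin, stood at -2.38 ± 0.49 (adjusted p = 0.151 by edgeR, 0.00261 by DESeq2) at 2.18 CPM or less in every library, and Serpinb6a at -0.39 ± 0.11 (adjusted p = 0.198 by edgeR, 0.0857 by DESeq2). Serpinb1a, the inhibitor of elastase, proteinase 3 and cathepsin G that neutrophils carry in their cytosol, was named after its values were seen. It had 76, 22 and 258 reads in wild type, against 338, 487 and 2123 in NICeCA, with a log2 fold change of 2.93 ± 0.99 (adjusted p = 0.232 by edgeR, 0.128 by DESeq2).

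**Figure D4:**
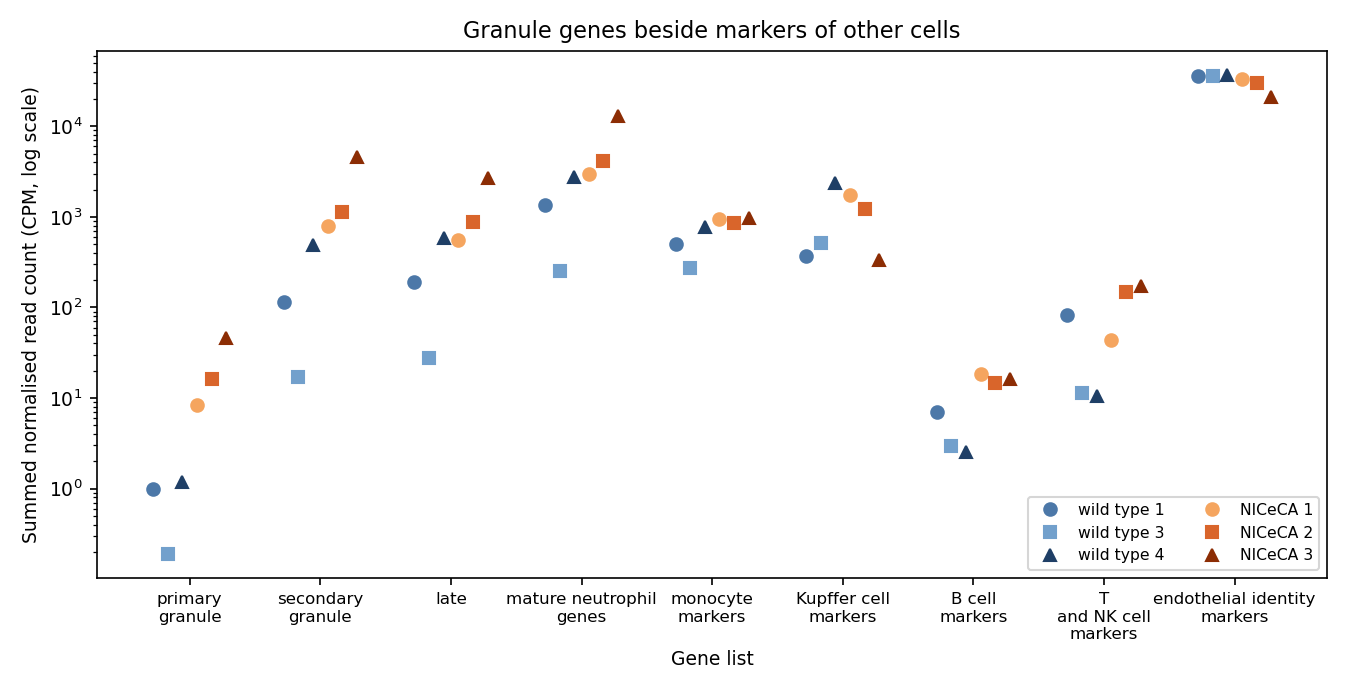
Summed normalised read count (CPM, log scale) of the 3 granule stages and of marker lists for other cells in each library; each point is a library. Primary and secondary genes separate the genotypes, late genes overlap between wild type 4 and NICeCA 1, and Kupffer cell sums overlap, from 373 to 2383 CPM in wild type and 336 to 1730 CPM in NICeCA.

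Markers of several other cells also had higher sums in NICeCA, and their part in the results was not tested. Monocyte markers, which share granule transcripts with early granulocytes, summed to between 270 and 779 CPM in wild type, and to between 853 and 960 CPM in NICeCA. All 11 were positive with a median log2 fold change of 1.12 and no call by edgeR. Nr4a1 stood at 1.20 ± 0.25 and Ace at 1.08 ± 0.32, and DESeq2 called both. DESeq2 also called F13a1, at 2.35 ± 0.81. The 11 values ran from 0.31 ± 0.33 for Ly6c1, which overlapped, to 2.54 ± 0.96 for Ly6c2, which did not overlap between groups. Pan-leukocyte markers summed to 201 to 597 CPM in wild type and 688 to 1883 CPM in NICeCA, 7 of 7 tested being positive, with Coro1a at 2.27 ± 0.81 and Ptprc at 1.78 ± 0.64, called by neither tool. Kupffer cell markers overlapped, at 373 to 2383 CPM and 336 to 1730 CPM, 7 of 11 positive and none called, with Slc40a1 at -0.51 ± 0.26 and Marco at -0.99 ± 1.56. T and NK cell markers also overlapped, at 10.5 to 82.5 CPM and 43.2 to 172 CPM, with 10 of 10 positive, Cd4 at 2.15 ± 0.54, which DESeq2 called, and Ncr1 at 1.23 ± 0.52. B cell markers did not overlap, at 2.56 to 6.98 CPM and 14.6 to 18.5 CPM, with 6 of 6 tested positive, Pax5 at 2.80 ± 0.46, which DESeq2 called, and Igll1 and Rag1 listed at 0 in every library. Erythroid markers summed to 24.7 to 34.4 CPM in wild type and 34.8 to 38.3 CPM in NICeCA, with 5 of 6 tested positive, Hbb-bt at 1.14 ± 0.53 and Epor at 0.24 ± 0.11. Epor made up most of each sum, at 22.4 to 24.97 CPM in wild type and 25.5 to 30.1 CPM in NICeCA. The globin genes of the list, at most 4.09 CPM in any library, overlapped between groups. The cells behind the Epor reads were not tested, so these sums do not show a difference in erythroid cells.

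Haematopoietic progenitor markers summed to 871 to 1125 CPM in wild type and 510 to 566 CPM in NICeCA. Kit carried that difference, at 582, 753 and 871 CPM in wild type 1, 3 and 4 and 285, 151 and 108 CPM in NICeCA 1, 2 and 3. The sum without Kit, computed after seeing the data, was 289, 263 and 254 CPM in wild type, against 281, 363 and 402 CPM in NICeCA, with NICeCA 1 below wild type 1. Kit, which sinusoidal endothelium also expresses, stood at -2.02 ± 0.37 (adjusted p = 0.124 by edgeR, 2.96e-06 by DESeq2). Of the 9 tested 6 were positive, with Sox4 at 0.81 ± 0.21 and called by DESeq2, and Flt3 had at most 16 reads in any library. Cell cycle genes were positive in 14 of 14 with a median of 0.83, at 153 to 262 CPM in wild type and 275 to 308 CPM in NICeCA. Cdk1 stood at 1.08 ± 0.30, which DESeq2 called, and Mki67 at 1.03 ± 0.36, which neither tool called. Egfl7 and Fcgr2b, of the endothelial list, stood at -0.50 ± 0.14 and -0.68 ± 0.22, and DESeq2 called the former lower. At an unadjusted p under 0.05 edgeR had 5 monocyte, 4 pan-leukocyte, 6 B cell, 2 T and NK cell, 5 progenitor, 3 cell cycle and 5 endothelial genes, and 0 Kupffer cell and 0 erythroid genes. These counts take both directions, in which 16.5% of all tested genes had such a p. Laptm5, of the pan-leukocyte list, was listed at 0 in every library.

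Genes whose profile over the 6 libraries was most like each stage were sought among 12938 named genes that averaged 1 CPM or more in one group or the other. For the mean log2 CPM of the primary genes these were Smox, Lmnb1 and Mzb1, with Pearson's r of 0.993, 0.992 and 0.991. For the secondary genes they were Ncf4, Mmp25 and Prkcd, with r of 0.9998, 0.9998 and 0.999, and for the late genes they included Ifitm6 and Tnfaip8l2, with r of 0.999 each. Ncf4 encodes a subunit of the phagocyte NADPH oxidase. The r values describe 6 libraries that differ widely in neutrophil signal.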

How the data were processed

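RNA of 6 isolates was sequenced as paired reads. The authors deposited 1 table with raw whole-number read counts per gene and, beside each, an RPKM value, per the file headers. The deposited RPKM equals count over gene length and library total, with a largest relative gap of 5.0e-06. The aligner, counter and build were not given in the sources used here, nor was strand use. The 10 genes, the context lists and the tests were chosen with earlier results of these data known.

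Counts were tested with edgeR 4.0.16 in R 4.3.3: filterByExpr (minimum count 10), TMM, glmQLFit and glmQLFTest on all 6 libraries, genotype as the single term, two-sided, with Benjamini-Hochberg adjustment over 19795 genes and a threshold of 0.05. SEs are the log2 fold change over the square root of F. DESeq2 1.42.0, voom in limma 3.58.1, other filters and scalings, a replicate block and leaving out each library were alternatives. In counts simulated for this comparison (19795 genes), edgeR recovered 21% of genes changed 2-fold and 70% changed 4-fold, with 17 of 108 calls false; DESeq2 recovered 49% and 90%, with 80 of 219 false. All 10 genes were named; from each other list the 2 genes with the smallest p were named, since none passed with edgeR, and per stage the 3 genes most alike in profile. Any further gene was picked with its values known. Some genes that this rule names are not reported here. Ratios between genes use reads of the same library.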

Additional observations from a re-analysis of the deposited data

How the results depend on the processing

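The count of all genes past the threshold, 9 with edgeR, was 1085 with DESeq2, 111 with no low-count filter and 27 with voom, and between 0 and 14 when each library was left out. It was 0 with the replicate number as a block and 0 with the mature neutrophil level as a covariate. Of the 10 granule genes 0 passed in the main fit, 4 with DESeq2, 3 (Elane, Prtn3 and Ctsg) with no low-count filter, and 0 with voom (9 at an unadjusted p under 0.05), the other scalings, the stricter filter, the block and every set of 5 libraries. Of the alternative values of the 10 log2 fold changes 130 kept their direction and their side of the threshold, 7 passed it, and 2 turned negative, Mmp8 at -0.26 and Retnlg at -0.41 with the mature neutrophil covariate. The difference in log2 primary over late, 2.02, turned to -0.79 with log2(CPM + 1) and was 0.88 with log2(CPM + 0.1), since several wild type values lie near or under these pseudocounts. It lay between 1.504 and 2.37 over the left-out libraries, at 2.02 with RPKM and at 2.12 without Mpo. The secondary over late difference lay between 1.03 and 1.30. The replicate numbers 1 and 3 occur in both genotypes, and deviations of same-numbered libraries correlated at -0.22 and -0.24. With so few libraries these values cannot decide whether the numbers pair the libraries. With the number as a block, wild type 4 and NICeCA 2 had no partner. The genotype difference there came from replicates 1 and 3 alone. The stage medians were then 5.24 for primary, 5.37 for secondary and 4.29 for late genes, so that primary no longer lay above secondary. Depth limits the primary genes most, as Ctsg rests on 3 wild type reads.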

Other observations

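Granule genes of other granulocytes varied in depth, from rows with a few reads to Prg2 and Ear2. Prg2, the eosinophil major basic protein, had 123, 8 and 16 reads in wild type, against 132, 223 and 263 in NICeCA, with a log2 fold change of 1.97 ± 0.88 (adjusted p = 0.325 by edgeR, 0.131 by DESeq2). Ear2, an eosinophil-associated ribonuclease, had 39, 16 and 175 reads in wild type, against 221, 151 and 68 in NICeCA, which overlap, at 0.82 ± 0.82 (adjusted p = 0.670 by edgeR, 0.679 by DESeq2). Prg2 and Ear2 were named after their values were seen, as were the low genes that follow. Prss34, a mast cell protease family member that marks basophils in mouse, had 0 reads in each wild type library and 3, 21 and 35 reads in NICeCA 1, 2 and 3, at least 17.9-fold higher against a floor of 3 counts over the wild type group. Mcpt8, another basophil protease, had 0 reads in wild type, against 2, 3 and 11 in NICeCA. The eosinophil peroxidase Epx and the mast cell genes Cpa3, Mcpt4 and Tpsb2 had at most 5 reads in any library. Of the 15 eosinophil, basophil and mast cell markers 4 were tested and all 4 were positive. Ear1, a relative of Ear2, stood at a log2 fold change of 4.20 ± 0.88 (adjusted p = 0.153 by edgeR, 0.00112 by DESeq2), and Siglecf at 1.96 ± 0.76 (adjusted p = 0.273 by edgeR, 0.117 by DESeq2).

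Abca13, a lipid transporter gene outside all the lists, was among the 24 genes higher without overlap per S100a8 read, at 4.14, 5.90 and 7.00 reads per 1000 in wild type and 13.4, 12.4 and 12.8 in NICeCA. Lin28a, an RNA-binding protein, was another, at 1.11, 0 and 1.31 against 3.75, 3.58 and 2.90. Both were named after their values were seen.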
